A study of Mus musculus with 12 samples.

Results

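Small nucleolar RNA host genes are transcribed, spliced and polyadenylated like messenger RNAs, but their exons carry no long conserved reading frame. The 7 described here, Gas5, Snhg1, Snhg3, Snhg6, Snhg8, Snhg9 and Snhg12, were taken by name from the 24781 rows of the table. They were chosen by their fold changes between picrotoxin and DMSO, the values of this same table. All 7 had a row, and all 7 passed the filter on low values, a mean above 1 normalised molecule over the 12 libraries. Values of the 7 in that comparison are therefore given as descriptions, and how many of them pass a test over all genes is printed only beside the share of all genes that do.

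RNA was counted in tumour-associated macrophages (TAMs) from MC38 tumours, which grow from a cultured mouse colon adenocarcinoma line, in wild-type mice given picrotoxin or its solvent DMSO. Picrotoxin blocks the ionotropic receptor for the neurotransmitter GABA. Both groups were wild-type, carried the same tumour line and were treated with 40 μg picrotoxin per mouse or with DMSO from 1 d before intradermal inoculation and then every other day, per the methods of the study. The strain was C57BL/6J or C57BL/6N and the age and sex of the mouse behind each library were not in the labels. Each library was made from 100 cells sorted as CD45+CD11b+F4/80high on day 7, with 6 DMSO and 6 picrotoxin libraries. The labels call the 6 of a group independent library preparations. The methods tie each to a mouse of its own and a figure text counts fewer mice than libraries, so some libraries may share a mouse and p-values over libraries may be too small.

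In a bulk sample of 100 cells, fewer cells with a transcript and less of it per cell cannot be told apart. Between 201697 and 309617 molecules were counted per library, and in the smallest library a transcript with a count of 0 may still have made up 0.00149% (3 molecules). The 12 macrophage markers together took 1.10% to 1.53% of molecules and all of them were detected in both groups, among them Adgre1 (F4/80) and Itgam (CD11b), which had molecules in all 12 libraries. Transcripts of fibroblasts and matrix took 0.0882% to 0.496%, a list that includes genes macrophages also express. The collagen transcript Col3a1, a defining gene of fibroblasts, had 94, 233 and 43 molecules in DMSO replicates 3, 5 and 6 and 3 to 16 in the other 9 libraries. Col1a1 had 195 molecules in DMSO replicate 5 and 0 to 4 elsewhere. T and NK cell, B cell, dendritic cell and neutrophil lists had at most 23, 3, 7 and 6 molecules in any library. Epithelial markers of the MC38 tumour cells had 8 to 14 molecules in DMSO and 8 to 21 in picrotoxin libraries, with 4 of the 6 markers at 0 in each group.

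A small nucleolar RNA (snoRNA) is cut out of an intron of its host after splicing, so that a host gene gives a stable snoRNA from its introns and a spliced RNA from its exons. C/D-box snoRNAs guide 2′-O-methylation and H/ACA-box snoRNAs guide pseudouridylation, mostly of ribosomal RNA. The spliced host RNAs often hold short reading frames that stop early, and many are degraded by nonsense-mediated decay while they are translated. Gas5 was named for its accumulation in growth-arrested cells, and it belongs, like ribosomal protein genes, to the transcripts with a pyrimidine tract at the 5′ end, whose translation and decay follow growth signals through mTOR. Macrophages use the same pathway when they respond to growth factors and nutrients.

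In GENCODE release M21 on GRCm38, the assembly also called mm10, the 7 genes lie on 5 chromosomes. Gas5 spans chr1:161034422-161038539 on the plus strand, Snhg1 chr19:8723475-8726443 on the plus strand, and Snhg12 chr4:132308623-132311024 on the plus strand. Snhg3 spans chr4:132348014-132353686, Snhg6 chr1:9941959-9944118, Snhg8 chr3:123507552-123508404 and Snhg9 chr17:24719531-24719965, these 4 on the minus strand. Inside them, on the same strand, 26 snoRNAs are annotated, with 9 in Gas5, 8 in Snhg1, 4 in Snhg12, 2 in Snhg3 and 1 each in Snhg6, Snhg8 and Snhg9. All 26 fall in an intron of at least 1 annotated transcript of their host, and 22 also overlap exon sequence of at least 1 other transcript. The lengths ran from 60 bases in Gas5 to 205 bases for the pair in Snhg3.

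The following 5 snoRNAs, from GENCODE M21 transcripts on GRCm38, show what the hosts carry, with C/D-box RNAs from Gas5, Snhg1 and Snhg6 and H/ACA-box RNAs from the hosts of 1 snoRNA, Snhg8 and Snhg9. Capitals mark the C box (TGATGA) and the D box (CTGA) of C/D-box snoRNAs, and the ACA near the 3′ end of the others. For Snord22 no TGATGA was found by the search and the D box alone is in capitals.
Snord47 (in Gas5, chr1:161038082-161038158, plus strand): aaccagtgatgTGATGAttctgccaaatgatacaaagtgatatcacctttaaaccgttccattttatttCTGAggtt
Snord22 (in Snhg1, chr19:8725866-8725991, plus strand): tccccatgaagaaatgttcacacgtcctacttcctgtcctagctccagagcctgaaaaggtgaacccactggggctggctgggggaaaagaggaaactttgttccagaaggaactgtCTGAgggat
Snord87 (in Snhg6, chr1:9942463-9942549, minus strand): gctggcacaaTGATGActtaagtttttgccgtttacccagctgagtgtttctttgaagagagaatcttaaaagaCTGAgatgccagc
Snora24 (in Snhg8, chr3:123507937-123508066, minus strand): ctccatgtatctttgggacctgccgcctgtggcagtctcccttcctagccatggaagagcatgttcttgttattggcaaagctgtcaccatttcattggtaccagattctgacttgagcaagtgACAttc
Snora78 (in Snhg9, chr17:24719676-24719803, minus strand): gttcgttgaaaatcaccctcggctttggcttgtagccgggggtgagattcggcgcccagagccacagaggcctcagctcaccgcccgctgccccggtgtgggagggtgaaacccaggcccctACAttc
Of the 26 snoRNAs, 14 held both TGATGA near the start and CTGA near the end.

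These snoRNAs lack a poly(A) tail and the libraries were primed with oligo-dT, so their rows say little about the mature snoRNAs. Of the 26, 9 had a row under the same symbol. Snord47, Snord87, Snora78, Snora44 and Snord99 had 4, 8, 3, 2 and 6 molecules over all 12 libraries, and Snora24 and Snora61 had 0. Snora16a had 31 and Snord22 had 159 molecules, and only these came to more than 10.

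Next, the level of each host gene was set in order. Per kilobase of the spliced transcript, in DMSO libraries, Snhg9 stood highest at 189 ± 82.3 normalised molecules (SD, n = 6), over 183 bases. Gas5 followed at 92.1 ± 35.8 over 665 bases (SD, n = 6), and then Snhg6 at 35.8 ± 14.5 over 400 bases and Snhg8 at 27.5 ± 13.0 over 528 bases (SD, n = 6). Snhg3 came to 16.4 ± 6.95 over 437 bases, Snhg1 to 7.36 ± 2.496 over 605 bases and Snhg12 to 6.86 ± 1.99 over 606 bases (SD, n = 6). Neighbours in this order overlapped between libraries, except Gas5, whose lowest library stood at 62.6 against 61.5 in the highest of Snhg6. Oligo-dT priming favours the 3′ end of a transcript, so that a level per kilobase can overstate a short RNA such as Snhg9.

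Counted as molecules, Gas5 was the largest of the 7, with 38.3% to 51.8% of their molecules in each library. Together the 7 gave 83 to 220 molecules a library, or 0.0379% (95% Wilson interval 0.0306 to 0.0470) to 0.0957% (0.0839 to 0.109) of all molecules. These intervals cover counting error only.

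**Figure D1:**
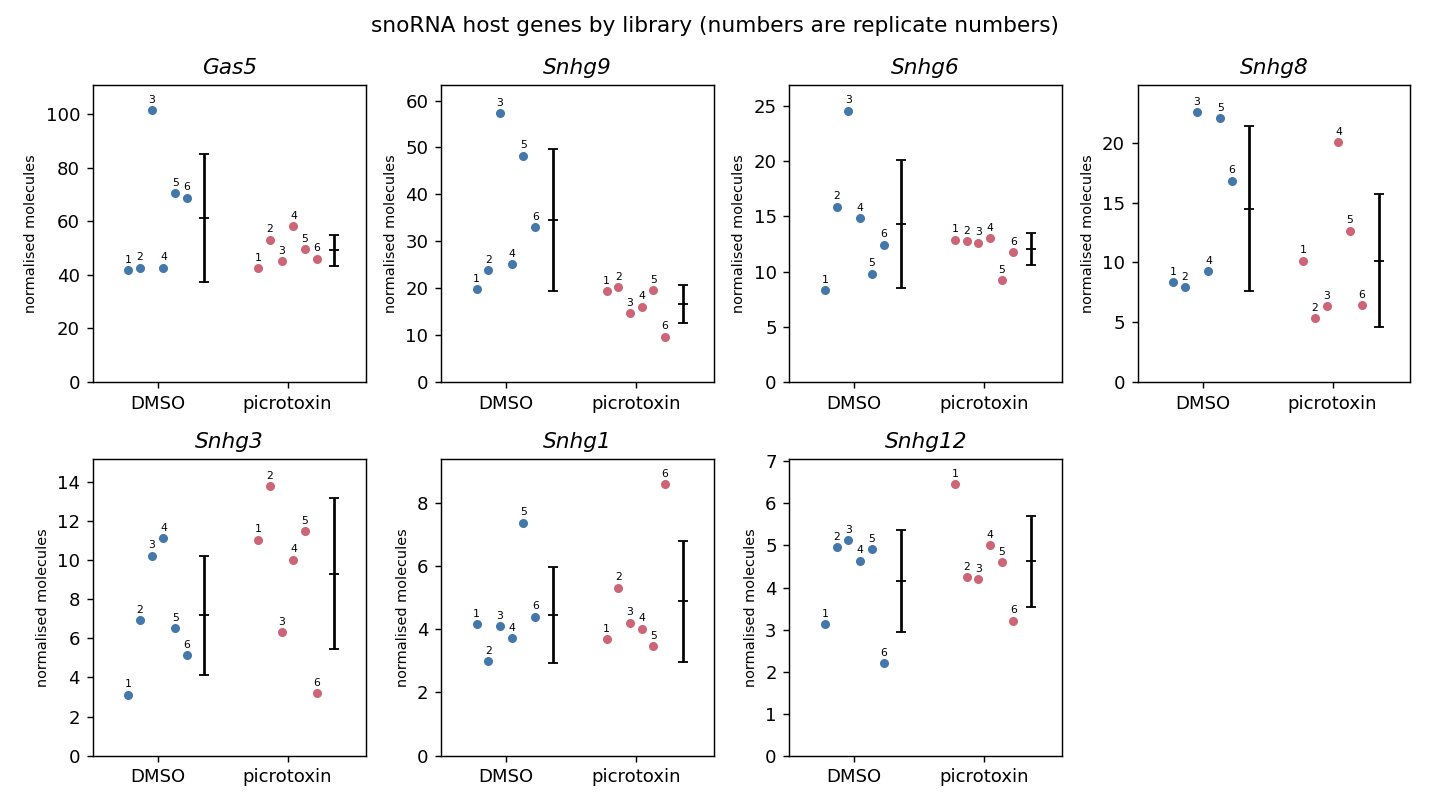
Normalised molecules (vertical axis, counts divided by the size factor of the library) of each of the 7 host genes in 6 DMSO (blue) and 6 picrotoxin (red) libraries, with replicate numbers beside the points and mean ± SD as black bars. Gas5 is above every picrotoxin library in DMSO replicates 3, 5 and 6, and Snhg9 is above every picrotoxin library in 5 of 6 DMSO libraries.

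Gas5 encodes 9 annotated snoRNAs in its introns, and its spliced RNA is known to bind the glucocorticoid receptor. It had 40, 43, 99, 46, 86 and 94 molecules in DMSO replicates 1 to 6 and 46, 50, 43, 58, 43 and 43 molecules in picrotoxin replicates 1 to 6. DMSO replicates 3, 5 and 6 lay above all picrotoxin libraries, and DMSO replicates 1, 2 and 4 lay among the lowest values of the series. After division by size factors the means were 61.3 ± 23.8 with DMSO and 49.1 ± 5.79 with picrotoxin (SD, n = 6), a log2 fold change of -0.31 (SE 0.17). The spread was uneven, with a variance 9.23 times the mean in DMSO and 0.684 times the mean in picrotoxin libraries, where counting alone gives about 1. Without DMSO replicate 3 the log2 fold change was -0.13.

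Snhg9, the host of the H/ACA snoRNA Snora78, differed most among the 7. Its RNA is short, with 2 exons. It had 19, 24, 56, 27, 59 and 45 molecules in DMSO replicates 1 to 6 and 21, 19, 14, 16, 17 and 9 in picrotoxin replicates 1 to 6. The groups overlapped through DMSO replicate 1 alone, since 5 of 6 DMSO libraries stood above every picrotoxin library on the normalised scale. Normalised means were 34.5 ± 15.1 with DMSO and 16.6 ± 4.03 with picrotoxin (SD, n = 6), a log2 fold change of -1.04 (SE 0.23). As for Gas5, the spread was wide in DMSO, with a variance 6.57 times the mean, and close to that of counting in picrotoxin libraries, at 0.98 times the mean.

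Snhg8 carries the H/ACA snoRNA Snora24. It had 8, 8, 22, 10, 27 and 23 molecules in DMSO and 11, 5, 6, 20, 11 and 6 molecules in picrotoxin replicates 1 to 6. High values occurred in both groups, in DMSO replicates 3, 5 and 6 and in picrotoxin replicate 4. Normalised means were 14.5 ± 6.87 and 10.2 ± 5.60 (SD, n = 6), with a log2 fold change of -0.51 (SE 0.30), and -0.83 without picrotoxin replicate 4.

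Snhg6, the host of the C/D-box snoRNA Snord87, had 8, 16, 24, 16, 12 and 17 molecules in DMSO and 14, 12, 12, 13, 8 and 11 in picrotoxin replicates 1 to 6. The highest value was again that of DMSO replicate 3, but DMSO replicates 5 and 6 did not stand out. Its log2 fold change was -0.21 (SE 0.24), and -0.01 without DMSO replicate 3.

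Snhg3 carries Snora73a and Snora73b, H/ACA snoRNAs long known as U17. It had 3, 7, 10, 12, 8 and 7 molecules in DMSO and 12, 13, 6, 10, 10 and 3 in picrotoxin replicates 1 to 6, and the groups overlapped over most of their range. The log2 fold change was 0.40 (SE 0.32), and -0.03 in replicates 3 to 6 alone.

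Snhg1, with 8 annotated snoRNAs, and Snhg12, with 4 snoRNAs, were near the limit of counting. Snhg1 had 3 to 9 molecules in DMSO and 3 to 8 in picrotoxin libraries, and Snhg12 had 3 to 6 and 3 to 7. The log2 fold changes were 0.11 (SE 0.37) for Snhg1 and 0.19 (SE 0.37) for Snhg12. Differences of this size were not detectable at this depth, and the standard errors are not a limit of detection.

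In the quasi-likelihood test of edgeR with Benjamini-Hochberg adjustment, the adjusted p was under 0.05 for 0.0522% of 9580 genes and for 0 of the 7 host genes. The lowest adjusted p of the 7 in edgeR was that of Snhg9, at 0.0598. An unadjusted p under 0.05 in edgeR was found for 7.77% of genes and for 1 of the 7, Snhg9. The rule of the study, an unadjusted p under 0.05 in DESeq2, passed 3.82% of genes and 1 of the 7, again Snhg9. This is the comparison in which the 7 were picked, so nothing is read from these counts. The median log2 fold change of the 7 was -0.21, against -0.006 over all genes tested, and 4 of the 7 were below 0, against 50.8% of all genes.

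**Figure D2:**
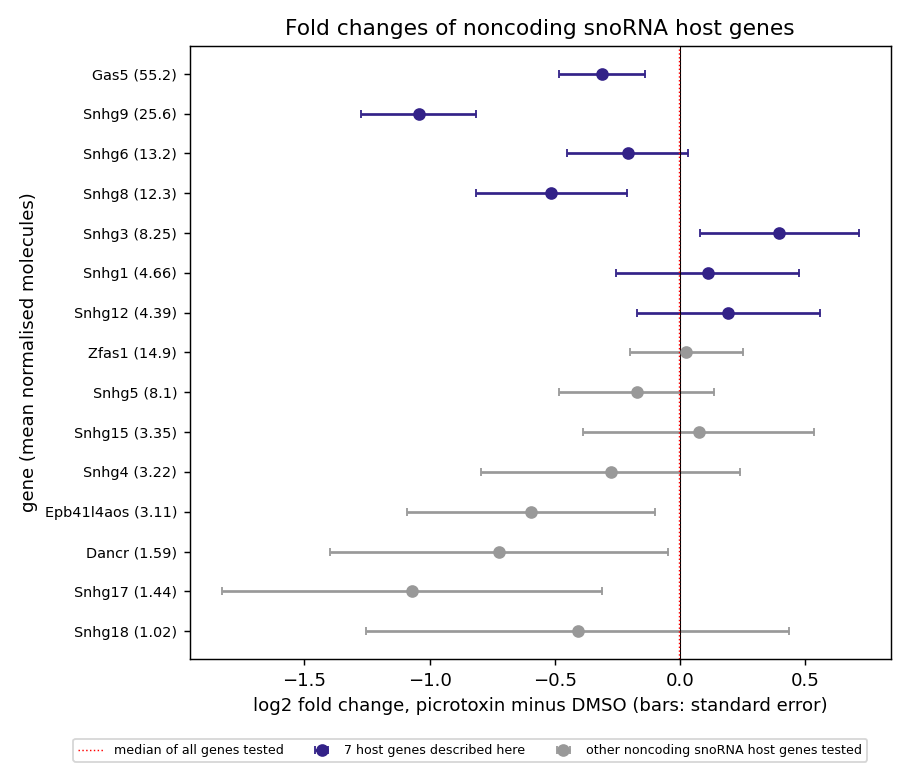
Log2 fold change of picrotoxin against DMSO (horizontal axis, with standard errors as bars) for the 7 host genes (dark) and the 8 other noncoding host genes tested (grey), ordered by mean normalised molecules, which stand in brackets. Snhg9 lies farthest from 0 among the 7, at -1.04, and the standard errors widen towards genes with few molecules.

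Levels of several host genes varied together between libraries. The sum of Gas5, Snhg9 and Snhg8 was 110 ± 44.9 normalised molecules with DMSO and 75.8 ± 11.6 with picrotoxin (SD, n = 6). The sum of the other 4 was 30.1 ± 8.71 and 30.9 ± 3.82 (SD, n = 6), so most of the spread of the whole lay in the first 3. Over deviations from the group means, with 12 libraries that share depth and preparation, Pearson's r was 0.79 between Gas5 and Snhg9, 0.73 between Gas5 and Snhg8, and 0.65 between Snhg8 and Snhg9. It was as high between Snhg3 and Snhg12, at 0.65, and 0.63 between Snhg3 and Snhg9, so that such variation was not particular to Gas5, Snhg9 and Snhg8. Of the 21 pairs among the 7, 16 were above 0, and the lowest was -0.50 between Snhg1 and Snhg3. These values were not set against the r of other gene pairs in the same libraries. Gas5 and Snhg9 had SDs of 23.8 and 15.1 normalised molecules with DMSO and 5.79 and 4.03 with picrotoxin. Their r thus rests mostly on DMSO libraries, and r within picrotoxin libraries was not computed.

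Summed over the 7, the level was 140 ± 50.7 normalised molecules with DMSO and 107 ± 13.8 with picrotoxin (SD, n = 6), a log2 ratio of the means of -0.40. The ratio was -0.21 without DMSO replicate 3 and -0.23 without Snhg9. By library the sums were 88.4, 105, 225, 111, 169 and 143 in DMSO replicates 1 to 6 and 106, 115, 93.6, 126, 110 and 88.9 in picrotoxin replicates 1 to 6. DMSO replicates 3, 5 and 6 lay above every picrotoxin library, and DMSO replicates 1, 2 and 4 lay within the picrotoxin range or at its lower edge. The same 3 libraries had the most Col3a1. The share of the fibroblast and matrix list was 0.253%, 0.496% and 0.249% there, 0.0993%, 0.0882% and 0.235% in DMSO replicates 1, 2 and 4, and 0.123% to 0.229% in picrotoxin libraries.

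Without DMSO replicates 3, 5 and 6, an alternative added once the values had been seen, the log2 ratio of the sum was 0.07. The log2 fold change was then 0.21 for Gas5, 0.25 for Snhg8 and -0.47 for Snhg9. The libraries left out were the 3 highest of DMSO for each of these genes. Leaving them out raises the fold change whatever the reason, so nothing is read from these values. With the summed matrix transcripts as a covariate the values were -0.20 for Gas5, -0.22 for Snhg8 and -0.88 for Snhg9. The cells were sorted on CD45, CD11b and F4/80. The source of the matrix transcripts, and the part they have in the levels of the 7, were not tested.

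**Figure D3:**
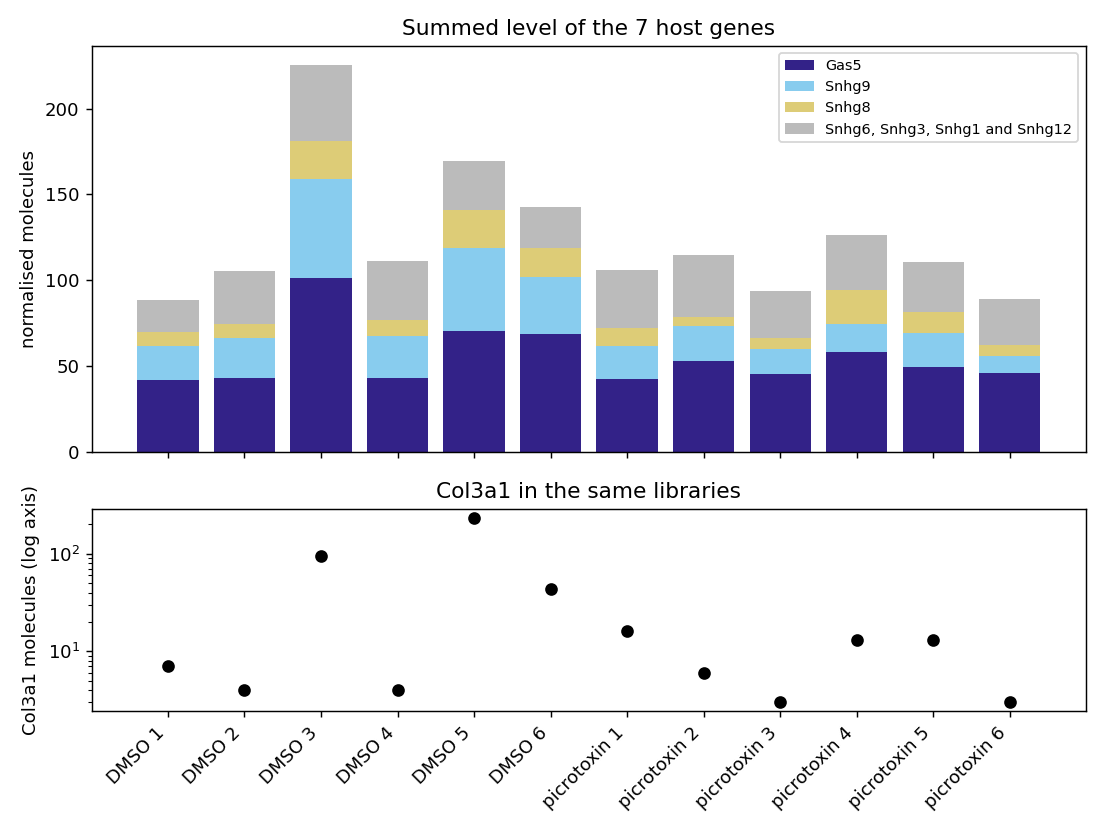
Upper panel, normalised molecules of Gas5, Snhg9, Snhg8 and the other 4 host genes, stacked for each of the 12 libraries. Lower panel, Col3a1 molecules in the same libraries on a log axis, with DMSO replicates 3, 5 and 6 at 94, 233 and 43 molecules and the other 9 at 3 to 16.

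Since Gas5 and ribosomal protein genes are known for the same tract at the 5′ end, the sum was also set against ribosomal protein transcripts. The 7 gave 5.45 ± 1.84 molecules for each 1000 ribosomal protein molecules with DMSO and 4.49 ± 0.616 with picrotoxin (SD, n = 6). The difference in log2 was -0.23, -0.08 without DMSO replicate 3 and -0.07 without Snhg9. Ribosomal protein transcripts themselves took 11.13% ± 0.614 of all molecules with DMSO and 10.05% ± 0.217 with picrotoxin (SD, n = 6). Their ranges were 10.37% to 12.13% and 9.78% to 10.41%. The reference was thus itself lower with picrotoxin, and the ratio does not compare the 7 with a steady level.

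The start sites of 6 of the 7 genes were matched in RefSeq (GRCm38.p6). The 80 bases from 50 before to 30 after the start, 5′ to 3′, are shown to compare the letters at the start of the host genes. Capitals mark TATAA or TATATA between 45 and 20 bases before the start, and a run of at least 5 letters that begins with C and goes on with C or T, between 10 bases before and 15 after the start.
Gas5 (chr1:161035116-161035195, plus strand): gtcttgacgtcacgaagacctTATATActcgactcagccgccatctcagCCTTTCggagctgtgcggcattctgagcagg
Snhg1 (chr19:8723437-8723516, plus strand): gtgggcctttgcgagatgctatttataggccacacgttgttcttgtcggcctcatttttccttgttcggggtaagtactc
Snhg3 (chr4:132353657-132353736, minus strand): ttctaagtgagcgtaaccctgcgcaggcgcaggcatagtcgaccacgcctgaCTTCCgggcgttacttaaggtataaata
Snhg8 (chr3:123508307-123508386, minus strand): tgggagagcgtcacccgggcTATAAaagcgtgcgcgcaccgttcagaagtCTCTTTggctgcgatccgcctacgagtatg
Snhg9 (chr17:24719936-24720015, minus strand): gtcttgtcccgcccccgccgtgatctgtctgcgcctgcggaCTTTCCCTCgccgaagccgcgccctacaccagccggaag
Snhg12 (chr4:132308628-132308707, plus strand): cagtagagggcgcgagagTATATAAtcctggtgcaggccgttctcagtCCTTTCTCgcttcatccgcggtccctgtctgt
The TATAA or TATATA letters were found in Gas5, Snhg8 and Snhg12, overlapping each other in Snhg12, and in 4.15% of all 32851 windows. On the other strand they were found in 2.65% of windows and in Gas5, Snhg1 and Snhg12, and TATATA in Gas5 and Snhg12 reads the same on both strands. A pyrimidine run was found in 5 of the 6, all but Snhg1, and in 30.7% of windows. Gas5, Snhg8 and Snhg12 had both, as did 1.4% of windows. Snhg9, the gene with the longest run at 9 letters, had no such TATA letters. Its run began 9 bases before the annotated start and ended before it, so this window does not place the run in the RNA.

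By a fixed rule, genes whose level was most like the sum of the 7 were sought among 1988 genes with a mean of at least 20, over deviations from the group means in the 12 libraries. Timm22, a component of the import machinery of the mitochondrial inner membrane, was first with an r of 0.90. It had 22, 26, 121, 39, 74 and 134 molecules in DMSO and 27, 24, 17, 36, 24 and 22 in picrotoxin replicates 1 to 6, and was high in DMSO replicates 3, 5 and 6. Its log2 fold change was -1.24 (SE 0.28), with an adjusted p of 0.0743 in edgeR. Rplp0, the ribosomal stalk protein P0, followed with an r of 0.89, at 350 to 451 normalised molecules with DMSO and 387 to 414 with picrotoxin. As for Gas5, the 3 highest DMSO libraries were replicates 3, 5 and 6, and the means of the groups were 401 in both. Kmt5a, a histone H4 lysine methyltransferase, had an r of 0.88 and Col3a1 one of 0.84. The r of the sum with the share of the matrix list was 0.62, with that of the ribosomal RNA precursor Rn45s 0.49, with that of ribosomal proteins 0.31 and with the library total 0.26. These are descriptions over 12 libraries.

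Reads of overlapping genes can change host gene counts, since it is not stated whether the counting used strand. Snhg9 lies wholly within Rps2, a ribosomal protein gene on the opposite strand (chr17:24718116-24721929), and their exons share 14 bases. Rps2 had 447 to 791 molecules in DMSO and 385 to 529 in picrotoxin libraries, a log2 fold change of -0.03 (SE 0.08) and an adjusted p of 0.962 in edgeR. For each 100 molecules of Rps2, Snhg9 had 4.14, 5.37, 10.98, 5.27, 8.59 and 5.69 in DMSO replicates 1 to 6 and 4.01, 3.89, 3.05, 3.02, 4.42 and 1.90 in picrotoxin replicates 1 to 6. The ratio was above the DMSO minimum in 1 of the picrotoxin libraries. The part that reads of Rps2 have in the Snhg9 row was not tested.

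**Figure D4:**
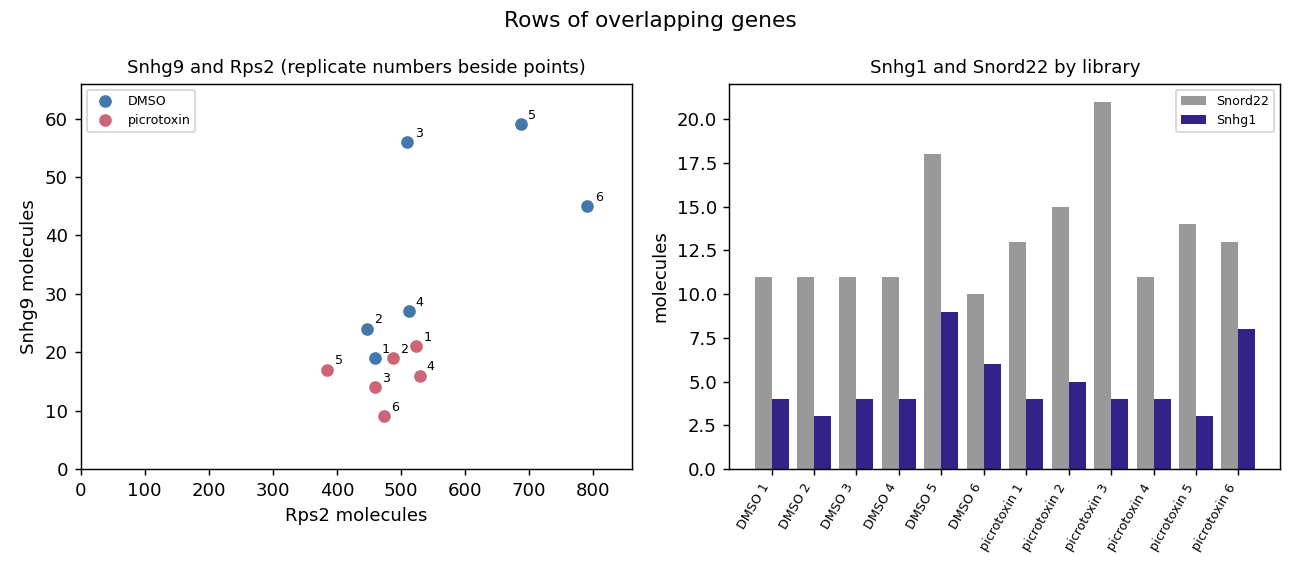
Left, Snhg9 against Rps2 molecules in each library, with replicate numbers, where Rps2 of DMSO and picrotoxin libraries overlap and Snhg9 reaches 45 to 59 molecules in DMSO replicates 3, 5 and 6. Right, Snord22 (grey) and Snhg1 (dark) molecules by library, with Snord22 above Snhg1 in all 12.

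Snord22 sits in an intron of Snhg1 and had more molecules than its host in every library. It had 11, 11, 11, 11, 18 and 10 molecules in DMSO and 13, 15, 21, 11, 14 and 13 in picrotoxin replicates 1 to 6. Its log2 fold change was 0.47 (SE 0.23), with an adjusted p of 0.642 in edgeR. Molecules of unspliced Snhg1 and of the snoRNA cannot be told apart in this row. Over all 119 rows of snoRNAs and small Cajal body RNAs there were 4085 molecules, of which 3151 fell on Snora81. No molecule was counted in 53 of these rows. Of the 12 rows tested, 0 had an adjusted p under 0.05 in edgeR. Snord22 was the 1 row at an unadjusted p under 0.05, which 7.77% of all genes had.

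The gene Slc3a2, the heavy chain of amino acid transporters, starts 106 bases from the start of Snhg1 on the other strand. It had 50.1 ± 3.02 normalised molecules with DMSO and 47.3 ± 11.4 with picrotoxin (SD, n = 6), with a log2 fold change of -0.07 (SE 0.14) and an adjusted p of 0.953 in edgeR. Rcc1, the exchange factor of the GTPase Ran, starts 81 bases from Snhg3 on the same strand and shares 135 exon bases with it, so reads of the pair cannot be fully told apart. Rcc1 had 2 to 10 molecules a library, a log2 fold change of 0.16 (SE 0.36) and an adjusted p of 0.954 in edgeR. Zbtb37, which overlaps Gas5, and Mcmdc2, which overlaps the 3′ end of Snhg6, both on the opposite strand, had 8 and 1 molecules in all 12 libraries. Mcmdc2 and Snhg6 share 127 exon bases. Rnf151, near Snhg9, had 0 molecules. Similar segments were sought with the spliced transcript chosen for each host gene. For 6 of the 7 this transcript shared no segment of at least 100 bases at 95% identity with another gene. That of Snhg3 shared 313 bases with Gm17300, its antisense neighbour. The exon bases shared with Rcc1 and Mcmdc2 were counted over all annotated transcripts, which this search did not cover.

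Other noncoding snoRNA host genes were then examined from a list. Of 19 listed genes 16 had a row and 8 were tested, and 0 of the 8 had an adjusted p under 0.05 in edgeR or DESeq2 and 0 an unadjusted p under 0.05 in either. Of the 8, 6 had a log2 fold change below 0, against 50.8% of all genes, and the median of the 8 was -0.34 against -0.006. Apart from Zfas1 and Snhg5, the means were 1.02 to 3.35 normalised molecules and the SEs 0.46 to 0.85. This median therefore rests on genes near the limit of counting. Zfas1, an antisense RNA that hosts C/D-box snoRNAs, was the only one with a mean of at least 10, at 14.9 ± 3.60 normalised molecules with DMSO and 14.8 ± 4.30 with picrotoxin (SD, n = 6). Its log2 fold change was 0.02 (SE 0.23), with an adjusted p of 0.994 in edgeR. 

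Many snoRNAs are hosted by protein-coding genes, often for ribosomal proteins and translation factors. Of 55 listed genes 53 were tested, among them 26 ribosomal protein genes. The test of edgeR gave 0 with an adjusted p under 0.05, as did DESeq2, and 4 with an unadjusted p under 0.05, all lower with picrotoxin, which is 7.55% of the list against 4.11% of all genes. The log2 fold change was below 0 in 44 of 53, or 83.0%, against 50.8% of all genes. The median of the list was -0.07, against -0.006 over all genes tested and -0.096 over 84 ribosomal protein genes. Rpl37, a protein of the large ribosomal subunit, had 226 ± 24.4 normalised molecules with DMSO and 177 ± 9.69 with picrotoxin (SD, n = 6), with a log2 fold change of -0.34 (SE 0.09) and an adjusted p of 0.242 in edgeR. Its lowest DMSO library, at 197, lay above its highest picrotoxin library, at 188, a pattern that 0.188% of all genes and 0 of the 7 host genes showed. Rpl5, which with 5S ribosomal RNA binds the p53 regulator Mdm2, had a log2 fold change of -0.33 (SE 0.10) and an adjusted p of 0.306 in edgeR. Rpl37 and Rpl5 had SDs in DMSO that were small beside their means. Both were picked by smallest p and had more molecules than Gas5 and Snhg9, so no contrast in spread is drawn.

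SnoRNAs work in particles with a core of proteins, fibrillarin (Fbl), Nop56, Nop58 and Snu13 for C/D-box RNAs. Of 20 listed genes for core proteins and assembly factors 19 were tested, 0 with an adjusted p under 0.05 in edgeR or DESeq2. In edgeR 2 had an unadjusted p under 0.05, both lower, or 10.5% against 4.11% of all genes, and the median log2 fold change was -0.26. Nop56, itself a snoRNA host gene, had 44.7 ± 7.63 normalised molecules with DMSO and 35.6 ± 3.73 with picrotoxin (SD, n = 6), with a log2 fold change of -0.31 (SE 0.14) and an adjusted p of 0.621 in edgeR. Fbl, the methyltransferase, had a log2 fold change of -0.32 (SE 0.18), and Ruvbl2, an assembly ATPase, one of 0.41 (SE 0.27) (adjusted p 0.746 and 0.768, edgeR).

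Host gene RNAs are substrates of nonsense-mediated decay, and all 20 listed factors of that pathway were tested. Again 0 had an adjusted p under 0.05 in edgeR or DESeq2, and 1 had an unadjusted p under 0.05 in edgeR, which is 5% of the list against 3.65% of all genes higher. This was Smg1, the kinase that phosphorylates Upf1. Smg1 had 21.5 ± 3.69 normalised molecules with DMSO and 30.5 ± 5.85 with picrotoxin (SD, n = 6), a log2 fold change of 0.51 (SE 0.17) and an adjusted p of 0.387 in edgeR. The release factor Gspt1 and the exon junction protein Rbm8a had log2 fold changes of 0.26 and -0.30 (adjusted p 0.728 and 0.737, edgeR). The median of the 20 was -0.07.

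The modified RNA itself is made by RNA polymerase I and processed in the nucleolus. Of 32 tested genes for these steps 0 had an adjusted p under 0.05 in edgeR or DESeq2, and 1 higher and 2 lower had an unadjusted p under 0.05 in edgeR, or 3.12% and 6.25% of the list against 3.65% and 4.11% of all genes. The 2 lower, named after their values were seen since their means were under 10, were Imp3, a component of the U3 snoRNP, at 11.3 normalised molecules with DMSO and 7.15 with picrotoxin (adjusted p 0.495, edgeR), and the polymerase I subunit Cd3eap, at 7.45 and 4.33 (adjusted p 0.621, edgeR). The higher was Twistnb, also a polymerase I subunit. By the rule for named genes, Twistnb had a log2 fold change of 0.47 (SE 0.22), Npm1, nucleophosmin, one of -0.19 (SE 0.12), and the helicase Ddx21 one of -0.22 (SE 0.13). Their adjusted p-values in edgeR were 0.621, 0.753 and 0.756. The row of the ribosomal RNA precursor, Rn45s, had a log2 fold change of 0.41 (SE 0.10) and an adjusted p of 0.121 in edgeR. It took 7.37% to 15.2% of all molecules. Precursor and mature ribosomal RNA cannot be told apart in this row, and the libraries were primed with oligo-dT. No level of the precursor is read from it.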

How the data were processed

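The table held deposited counts, whole numbers of molecules per gene symbol that the authors made with molecular barcodes. Per the labels, heat-fragmented RNA was primed with oligo-dT and reads were mapped with STAR to mm10. The use of strand, the treatment of reads with several positions and the repair of barcode errors are not given in the sources used here. Rows with no molecule came to 10966 of 24781, and the table held 0 spike-in rows.

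Libraries were grouped by their labels. Each of the 30 pairs within a group differed by more than sampling noise (chi-square per degree of freedom 1.23 to 3.15), so none was counted as a copy of another. Genes with a mean above 1 normalised molecule were tested with the quasi-likelihood test of edgeR 4.0.16 (TMM, Benjamini-Hochberg over all 9580 genes). The design of the study, a Wald test in DESeq2 1.42.0 with unadjusted p under 0.05, was run beside it. Normalised molecules are counts divided by DESeq2 size factors. Standard errors (SE) are the log2 fold change of edgeR divided by the root of its F statistic. Levels compared between libraries for likeness were log2 CPM (prior count 2). The edgeR fit was tested on simulated counts.

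The 7 host genes, the 5 gene lists and the tests were chosen with earlier results of these data known. The lists came from general knowledge. Named genes were the 7, in each list the 3 tested genes with the smallest unadjusted edgeR p and a mean of at least 10, genes that overlap a host gene or start within 2 kb of its start, the 5 genes most like the sum, and Rn45s. The result of 1 gene of this rule is not reported here. Other noncoding host genes in the plot, Snora81, nested snoRNAs, Col1a1 and Gm17300 were named outside that rule. Spliced lengths are those of the GENCODE M21 transcript linked to RefSeq, or the longest without a retained intron for Gas5 and Snhg8. Positions follow GENCODE M21 on GRCm38, which is not the annotation the authors counted with. Alternatives varied scaling, filter, tool, replicate block, covariates and libraries.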

Additional observations from a re-analysis of the deposited data

Results flagged for a closer look

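Libraries that lay far from the rest of their group were looked for in 18 tests. There were 3, and chance flags about 1 in 20 groups, or 0.9. Snhg1 was at 7.362 normalised molecules in DMSO replicate 5, against 2.98 to 4.39 in the other DMSO libraries. Snhg1 was also at 8.572 in picrotoxin replicate 6, against 3.45 to 5.31 in the others, and without that library its log2 fold change was -0.12 in place of 0.11. Snhg6 was at 9.2 in picrotoxin replicate 5, against 11.8 to 13.0 in the others, a difference of few molecules. Why they lay apart was not tested.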

How the results depend on the processing

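In edgeR, 5 genes passed an adjusted p of 0.05, and 13 with library totals, 81 with every gene of at least 1 count, 2 in DESeq2, 43 with the replicate block, 49 in replicates 3 to 6 alone, 27 with a term for numbers 1 and 2, 12 without Rn45s, 13 with the matrix covariate, 1 without DMSO replicates 3, 5 and 6, and 0 to 25 when 1 library was left out in turn. Of the 7 host genes, 1 passed with library totals, with every gene of at least 1 count and without Rn45s. The same held with the replicate block, in replicates 3 to 6 alone and with the term for numbers 1 and 2. It also held without DMSO replicate 1, 2 or 4. In these settings 12 to 81 of 9568 to 13815 genes tested passed. In the other settings 0 of the 7 passed. By the DESeq2 rule of the study 366 genes passed, against 744 by unadjusted p in edgeR, 233 above a mean of 10 and 101 with the replicate block. Without DMSO replicates 3, 5 and 6 (chosen after seeing the data), the log2 fold change was 0.21 for Gas5 and 0.25 for Snhg8, and the log2 ratio of the sum was 0.069 (relative to ribosomal proteins 0.12). The cause was not tested. Of the 158 refits of the 7 fold changes, 155 moved by less than the spread between replicates. The 5 lists gave 0 genes with an adjusted p under 0.05 in 115 of 115 refits. Same-numbered libraries did not deviate together (r from -0.02 to 0.05, 0 of 6 pairs above 0.1), so the numbers are not taken as pairs, and the replicate block is reported here only. Depth limits Snhg1 and Snhg12, at 3 to 9 molecules a library.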
